A study of Gossypium hirsutum with 3 samples.

Results

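Chromosome 10 of upland cotton (Gossypium hirsutum) exists in an A-subgenome copy, A10, and a D-subgenome copy, D10. Its genes were taken as all genes whose identifier begins with Gh_A10 or Gh_D10, which gave 5003 of the 70478 genes in the leaf tables, 2357 on A10 and 2646 on D10. The number after the letter G runs without a gap from 1 to 2357 on A10 and from 1 to 2646 on D10, and it was used as the gene order. The chromosome was picked for its large difference between A10 and D10 in these same libraries. That difference and everything derived from it is therefore given as a description, without a test.

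The libraries were made from true leaves of 20-day-old, untreated greenhouse plants of the cultivar TM-1, and they formed a single group of 3 replicates. No source used here states whether the replicates came from separate plants, so the spread between them may be partly technical. The deposited values are FPKM, in which the fragments of a gene are scaled to its transcript length and to the size of the library, and the files hold no read counts. Across the 5003 genes, Spearman's correlation between libraries ranged from 0.981 to 0.987, genes not being independent replicates. The FPKM sum on chromosome 10 was highest in replicate 3, at 43570.4 on A10 and 41659 on D10, against 38646 and 37437 in replicate 1 and 38910 and 37873 in replicate 2. The identifiers carry no gene names, and 0 of them were found in the RefSeq gene table, so leaf identity could not be checked against marker genes. No gene sequence of chromosome 10 was used here for the same reason.

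Upland cotton is an allotetraploid, a plant that joined the nuclear genomes of an A-genome and a D-genome diploid ancestor. Each chromosome number occurs in both subgenomes, and many genes have a homeolog, the matching copy in the other subgenome. The homeologs of a pair can be expressed equally, or the copy of one subgenome can dominate. In plants, genes kept silent in a tissue often carry the repressive histone mark H3K27me3, whereas the promoters and gene bodies of active genes carry H3K4me3. The A-subgenome chromosomes of cotton are physically larger because they hold more repeats, and genes are sparse around the centromeres of both kinds. Distances in gene number are therefore not distances in base pairs.

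D10 carried more expressed genes than A10 but a smaller share of its genes was expressed. Taking a gene as expressed at a mean FPKM of 1 or more, as the study does, there were 1413 such genes on A10 and 1474 on D10. The genes below that level numbered 944 on A10 and 1172 on D10. Leaf is a mixture of cell types, and expression in few cells cannot be told apart from low expression in all of them. D10 thus held 289 more genes, of which 61 more were expressed and 228 more were not. The expressed share was 59.9%, 60.2% and 58.8% on A10 in replicates 1, 2 and 3. On D10 it was 55.9%, 56.0% and 54.4%. The groups of library values did not overlap, and the gap of A10 over D10 was 4.22 ± 0.21 percentage points (SD, n = 3 libraries).

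The gap was the widest in expressed share among the 13 chromosome numbers. Over the mean of the libraries it was 4.24 percentage points for chromosome 10 and 3.84 for chromosome 03, the next in order, and it ran down to -0.63 for chromosome 04. On D10 lay the smallest expressed share of all 26 chromosomes, 55.7%, where the other 12 D chromosomes ranged from 56.8% to 62.3%. A10 stood near the middle with 59.9%, against 56.1% to 65.0% on the other 12 A chromosomes. Its excess of 228 silent genes on the D copy was also found for chromosome 04 and was exceeded by chromosome 02, with 260. On chromosomes 02 and 04, however, the D copy also held 364 and 321 more expressed genes, whereas on chromosome 10 it held 61 more. Counting all genes, D minus A was 624 and 549 on chromosomes 02 and 04. On chromosomes 03 and 05 it was -327 and -84, and among expressed genes -284 and -178. Whether chromosomes of the same number correspond along their whole length was not tested here.

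**Figure D1:**
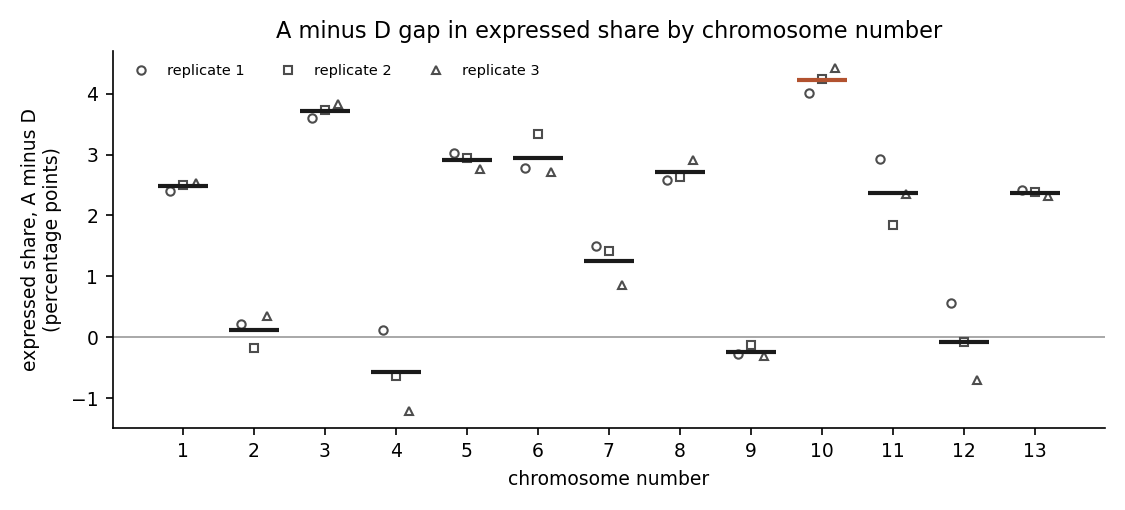
The vertical axis gives the share of A-subgenome genes with FPKM of 1 or more minus that of D-subgenome genes, in percentage points, for each of the 13 chromosome numbers. Symbols are the 3 libraries and bars their mean, and chromosome 10 (coloured bar, 4.22) is the highest, with all its libraries between 4.01 and 4.42.

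Genes with a mean FPKM of 1 or more had nearly the same level on both copies. Among the expressed genes, mean log2(FPKM + 1) was 3.18 on A10 and 3.15 on D10, a gap of 0.03. Their median FPKM was 6.62 on each copy. Over all genes, silent ones included, mean log2(FPKM + 1) was 1.98 ± 0.03 (SD, n = 3) on A10 and 1.83 ± 0.03 (SD, n = 3) on D10. That gap, 0.146 ± 0.003 (SD, n = 3), was above 0 in 3 of 3 libraries and was the second of the 13 after 0.21 for chromosome 03. With a pseudocount of 0.1, which gives weakly expressed genes more weight, the gap was 0.26. On chromosome 03, by contrast, the expressed genes alone differed by 0.13.

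The classes of FPKM show where the copies parted. On A10, 415 genes (17.6%) were listed at 0 in every library and 529 (22.4%) lay above 0 and below FPKM 1. On D10 these were 543 genes (20.5%) and 629 (23.8%). The share at 0 on D10 was the highest of the 26 chromosomes, followed by A04 with 19.4%. The other 12 D chromosomes lay between 15.2% and 18.7%. Between FPKM 1 and 10 lay 900 genes of A10 (38.2%) and 958 of D10 (36.2%). From FPKM 10 upwards the copies were close in number, and the share was smaller on D10, which held more genes in all. From FPKM 100 upwards, by contrast, D10 was ahead in both number and share. Genes with mean FPKM of 10 or more numbered 513 on A10 (21.8%) and 516 on D10 (19.5%). Those with 100 or more numbered 34 (1.44%) and 43 (1.63%). Median FPKM was 2.18 on A10 and 1.71 on D10. Few genes crossed the threshold between libraries, with 1344 genes of A10 and 1389 of D10 at FPKM 1 or more in every library and 889 and 1102 in none. The FPKM files do not show how many reads fitted both homeologs, nor whether more weakly supported gene models were annotated on D10, and neither was tested.

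Along the gene order, A10 and D10 were cut into windows of 100 genes. On A10 the expressed share of the full windows ranged from 40% to 74% with a median of 60%, and on D10 from 41% to 69% with a median of 58%. Within a window the SD over the 3 libraries was between 0 and 2.89 percentage points, with a median of 1.53. That SD comes from measuring the same genes again. It does not show how far a share varies with which 100 genes fall in a window, and differences between windows were not tested. Fewer than 50% of genes were expressed in 2 of the 23 full windows of A10 and in 6 of the 26 full windows of D10.

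Over the mean FPKM, the highest window of A10 was Gh_A10G0201 to Gh_A10G0300 with 74% of genes expressed, and within replicates 1, 2 and 3 its share was 73%, 73% and 71%. Directly before it lay the lowest window, Gh_A10G0101 to Gh_A10G0200, with 39%, 41% and 39%. This was the sharpest step on A10, and the low window held 34 genes listed at 0 in every library against 10 in the high one. Gh_A10G1301 to Gh_A10G1400 was about as high, with 73% over the mean FPKM and 74%, 74% and 73% in the libraries, above the former window in each of them. It had the highest median FPKM of any A10 window, 3.92. A second low stretch lay in Gh_A10G1901 to Gh_A10G2000, with 47% expressed and a median FPKM of 0.593.

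D10 fell off towards its high gene numbers. Its highest windows were Gh_D10G0001 to Gh_D10G0100 and Gh_D10G0401 to Gh_D10G0500, each with 69% of genes expressed, and Gh_D10G1101 to Gh_D10G1200 with 68% and the highest median FPKM, 3.71. Over the mean FPKM, the lowest full window was Gh_D10G2101 to Gh_D10G2200, with 41% of genes expressed, 43%, 43% and 40% in replicates 1, 2 and 3, and a median FPKM of 0.238. Gh_D10G2201 to Gh_D10G2300, the third lowest, was close to it, with 44%, 44% and 39%. Another dip, Gh_D10G1501 to Gh_D10G1600, had 42% over the mean FPKM, between windows with 57% and 60%. Its library values of 42%, 42% and 40% were below those of Gh_D10G2101 to Gh_D10G2200 in 2 libraries and level in the other. The final 46 genes, Gh_D10G2601 to Gh_D10G2646, held 19 expressed genes.

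**Figure D2:**
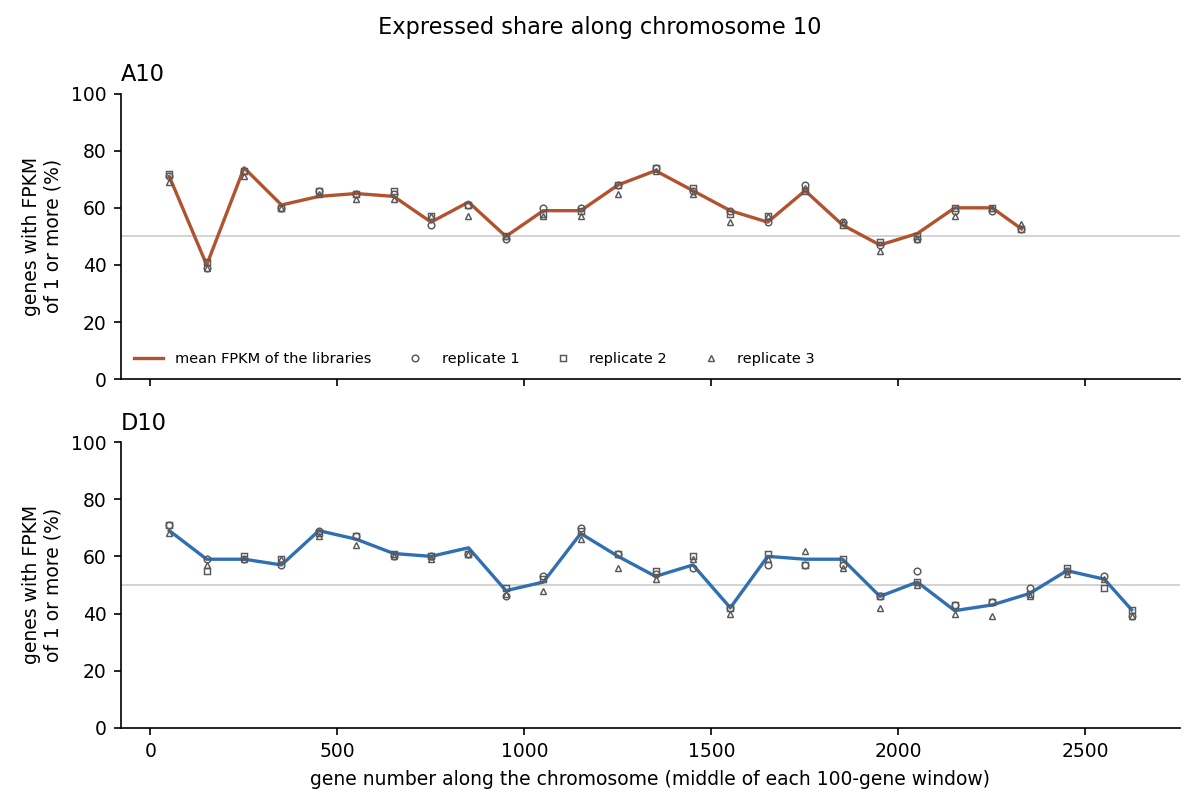
The vertical axes give the percentage of genes with FPKM of 1 or more in each 100-gene window of A10 (top) and D10 (bottom), and the horizontal axis the gene number. Lines are the mean FPKM of the libraries and symbols the 3 libraries; A10 drops to 40% in its second window, and D10 reaches 41% to 47% in several windows after gene 1500.

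Windows of the same number were then set beside each other. They are not homeologous stretches gene by gene, because the copies differ in gene number. D10 lay below A10 in 15 of 24 windows, above it in 8, and level in the remaining window. In 14 windows D10 was lower in every library and in 8 it was higher in every library, the latter including window 21, where the shares over the mean FPKM were level at 51%. The low D10 windows gathered in the later part of the chromosome, since D10 was lower in 6 of the first 12 windows and in 9 of the last 12. When windows were matched by their fraction of the chromosome, D10 lay below A10 in 18 of 24. With mean log2 level in place of the expressed share, D10 lay below A10 in 13 of 24 windows of the same number. By level, the windows were thus more evenly divided between the copies than by share.

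The widest gaps of A10 over D10 were in windows 14, 22, 16 and 23. In window 14, from number 1301 to 1400, the share was 73% on A10 and 53% on D10, with gaps of 20, 19 and 21 percentage points in replicates 1, 2 and 3. In window 22, from 2101 to 2200, it was 60% and 41%. Windows 16 and 23 each had a gap of 17 percentage points. All 4 were lower on D10 in every library. The widest gap in the other direction was in window 2, from 101 to 200, where 40% of A10 genes and 59% of D10 genes were expressed. Window 12, from 1101 to 1200, followed, with 59% on A10 and 68% on D10. Over the 23 full windows of A10, the profiles of expressed share were only loosely alike (Pearson's r = 0.31 between windows of the same number, which share libraries and are not independent).

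Running counts of genes placed the difference in the second part of the chromosome. Over the first 1300 genes, 792 were expressed on A10 and 790 on D10, so that both copies had the same share within the spread of the libraries, 60.5% ± 0.93 (SD, n = 3) and 60.4% ± 0.98 (SD, n = 3). After gene 1300, 621 of 1057 genes were expressed on A10 and 684 of 1346 on D10. The shares there were 58.6% ± 0.49 (SD, n = 3) and 50.6% ± 0.80 (SD, n = 3), and the libraries did not overlap. The position 1300 was chosen after the curves were seen.

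**Figure D3:**
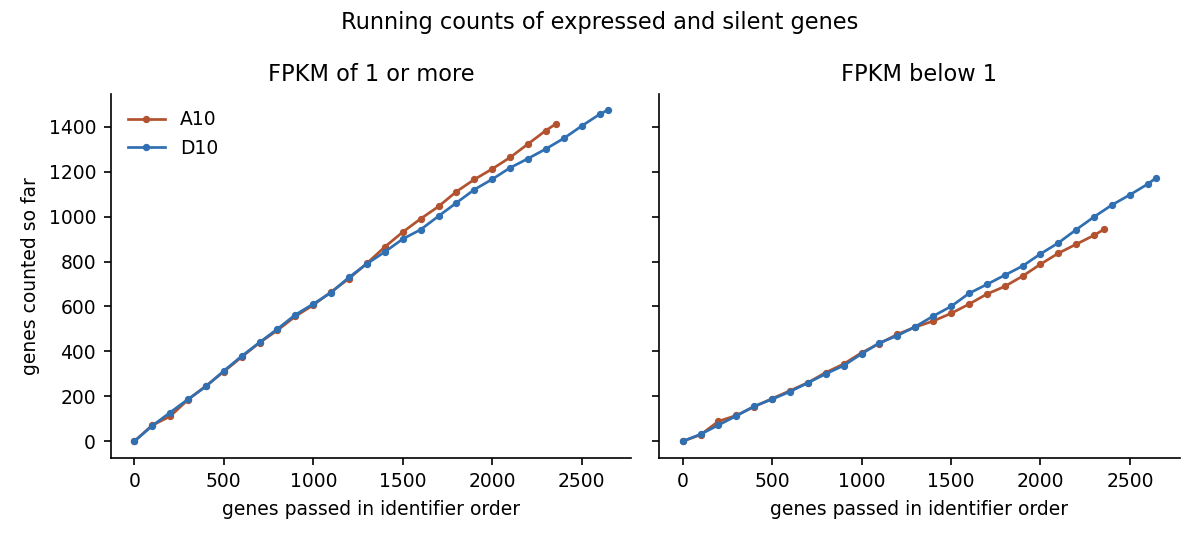
The horizontal axes give the number of genes passed in identifier order and the vertical axes the number of them with mean FPKM of 1 or more (left) or below 1 (right). A10 and D10 part around gene 200 (111 and 128 expressed) but are close again by gene 300 (185 and 187) and at gene 1300 (792 and 790). After gene 1300, D10 gathers silent genes faster and ends at 1172 against 944.

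With the gene order cut into 3 equal segments, the opening segment of D10 (Gh_D10G0001 to Gh_D10G0882) held 553 expressed genes of 882, or 62.7%, and that of A10 (Gh_A10G0001 to Gh_A10G0785) held 488 of 785, or 62.2%. The gap of A10 over D10 was -0.53 percentage points, and it changed sign between libraries, from -0.77 in replicate 1 to 0.46 in replicate 2. In the middle segments, A10 and D10 held the same number of expressed genes, 483, but 304 silent genes stood beside them on A10 and 399 on D10. In the closing segments, 442 genes of A10 and 438 of D10 were expressed, beside 343 and 444 silent ones. The gaps there were 6.61 and 6.65 percentage points and were positive in 3 of 3 libraries. In the middle and closing segments together, D10 thus carried more genes than A10 without carrying more expressed ones. Among expressed genes alone, mean log2(FPKM + 1) was 3.19 on A10 and 3.18 on D10 in the opening segments. It was 3.17 and 3.18 in the middle segments and 3.17 and 3.08 in the closing ones.

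The closing segment of D10 was also low against other chromosomes. Its expressed share, 49.7%, was the second lowest of 26 closing segments, after D05 with 48.7%, and the median over all 26 was 59.4%. From the opening to the closing segment the share fell by 13.04 percentage points on D10, by 18.3 on D05 and by 12.9 on D11, while it fell by 5.86 on A10. Such a fall was no general feature, as the median change over the 26 chromosomes was 0.53.

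Silent genes were followed further as runs, meaning neighbouring genes that all had mean FPKM below 1. Most runs were short, with a median length of 1 gene on either copy, and 287 of 493 runs on A10 and 296 of 558 on D10 were single genes. Runs of 5 or more genes numbered 32 on A10, with 220 genes, and 43 on D10, with 323 genes. These long runs held 12.2% of D10 genes, the highest of the 26 chromosomes, followed by A04 with 11.3%. They held 9.33% of A10 genes, where the median of the 26 was 6.90%. Of the 43 long runs of D10, 26 began in its closing segment, compared with 12 of 32 on A10. Runs of 10 or more genes numbered 4 on A10 and 9 on D10. Such counts also depend on the share of silent genes, which was larger on D10. Whether the runs exceeded what that share alone would give was not tested.

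The longest silent run of D10 spanned 21 genes, Gh_D10G2166 to Gh_D10G2186, and it equalled the longest on any chromosome, shared with D05. In it, 15 genes were listed at 0 in every library, and no gene reached FPKM 1 in any library. The run was bounded by expressed genes, Gh_D10G2165 with a mean FPKM of 3.39 and Gh_D10G2187 with 6.996. The next on D10 were runs of 15 genes, Gh_D10G2367 to Gh_D10G2381, with 12 genes at 0, and Gh_D10G2631 to Gh_D10G2645, with 14 genes at 0. The latter reached almost to the end of the chromosome, where the final gene, Gh_D10G2646, had a mean FPKM of 4.91. Between Gh_D10G2101 and Gh_D10G2300, 7 long runs held 63 of the 200 genes.

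The longest silent run of A10 spanned 17 genes, Gh_A10G0171 to Gh_A10G0187, of which 15 were at 0 in every library. It lay inside the low second window, in which 5 long runs held 40 of the 100 genes. It ended beside Gh_A10G0188, with a mean FPKM of 34.0. The second run of A10, Gh_A10G2017 to Gh_A10G2032, spanned 16 genes, 10 of them at 0, and no gene of either run reached FPKM 1 in a library. The longest run of genes listed at 0 in every library was 15 genes on A10 and 14 on D10. By that stricter measure D10 did not exceed A10.

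**Figure D4:**
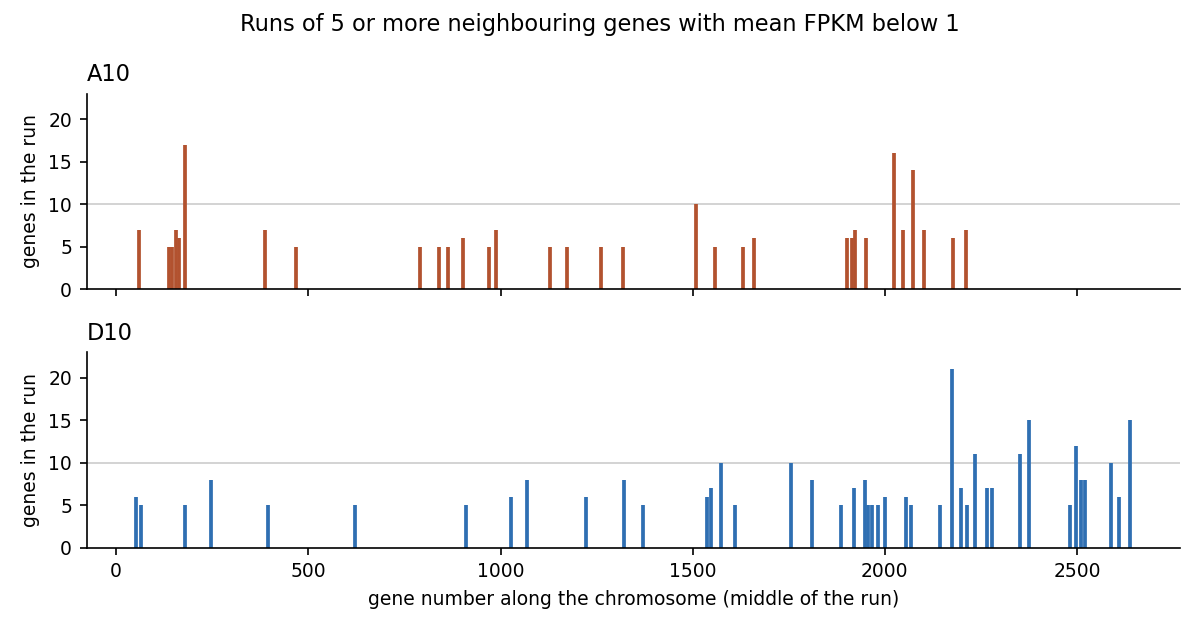
Each line marks a run of 5 or more neighbouring genes with mean FPKM below 1, placed at its middle gene number on A10 (top) or D10 (bottom), and its height is the number of genes. On D10 the runs crowd after gene 1500, up to 21 genes, whereas the longest on A10, 17 genes, lies near its start.

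A small number of genes carried much of the transcript mass of chromosome 10. The 10 highest genes held 46.9% ± 3.2 (SD, n = 3) of the FPKM sum of A10 and 43.1% ± 2.5 (SD, n = 3) of that of D10. Only 2 of the 26 chromosomes, A07 and D07, had a larger share than A10, and D10 came directly after it. The sums themselves were close, 40375 on A10 and 38990 on D10 over the mean of the libraries, a ratio of 1.04. Without their 10 highest genes, A10 kept 21384 and D10 22139, so the small excess of A10 rested on these genes.

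The gene with the highest FPKM on D10 was Gh_D10G0369, with 6967, 7367 and 9958 in replicates 1, 2 and 3. On A10 it was Gh_A10G0361, with 6825, 7151 and 9722. They held ranks 4 and 5 among all 70478 genes, lay at nearly the same gene number, and were both highest in replicate 3. Each alone held about as large a part of its chromosome, 20.8% of the FPKM sum of D10 and 19.6% of that of A10. Whether they are homeologs was not analysed here, since the listed pairs that were used do not reach this chromosome, and reads that fit both could have been assigned to either.

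The genes at ranks 2 to 5, and again at 7 to 9, lay at unlike gene numbers on the copies. Those at rank 6 lay at 147 on A10 and 150 on D10, and those at rank 10 at 259 on both. Only genes of equal rank were compared in this way. At unequal ranks, Gh_A10G0043 (rank 7) and Gh_D10G0046 (rank 11) also lay close in number. Numbers were not scaled to the 2357 and 2646 genes of the copies, and whether any of these genes are homeologs was not analysed here. On A10, Gh_A10G1331 held rank 2 with FPKM of 4037, 3887 and 5101 in replicates 1, 2 and 3, and Gh_A10G1991 rank 3 with 2447, 2484 and 2629. On D10, Gh_D10G2299 held rank 2 with 3248, 3197 and 3488. It sat in window 23, Gh_D10G2201 to Gh_D10G2300, in which 43% of the genes were expressed. Gh_A10G1991 likewise stood in a low window, the one with 47% of genes expressed. Gh_A10G1331 stood in a high one, Gh_A10G1301 to Gh_A10G1400, with 73%. The highest genes thus lay in windows with many as well as with few expressed genes.

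Next on A10 came Gh_A10G0618, with a mean FPKM of 1292 ± 64.5 (SD, n = 3), and Gh_A10G2195, with 1052 ± 91.5 (SD, n = 3). On D10, Gh_D10G0167 had 1388 ± 126 (SD, n = 3), Gh_D10G1142 had 1114 ± 173 (SD, n = 3) and Gh_D10G0782 had 989 ± 60.4 (SD, n = 3). Gh_D10G1142 was the only one of these 10 genes that was lowest in replicate 3, with FPKM of 1224, 1203 and 914.

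**Figure D5:**
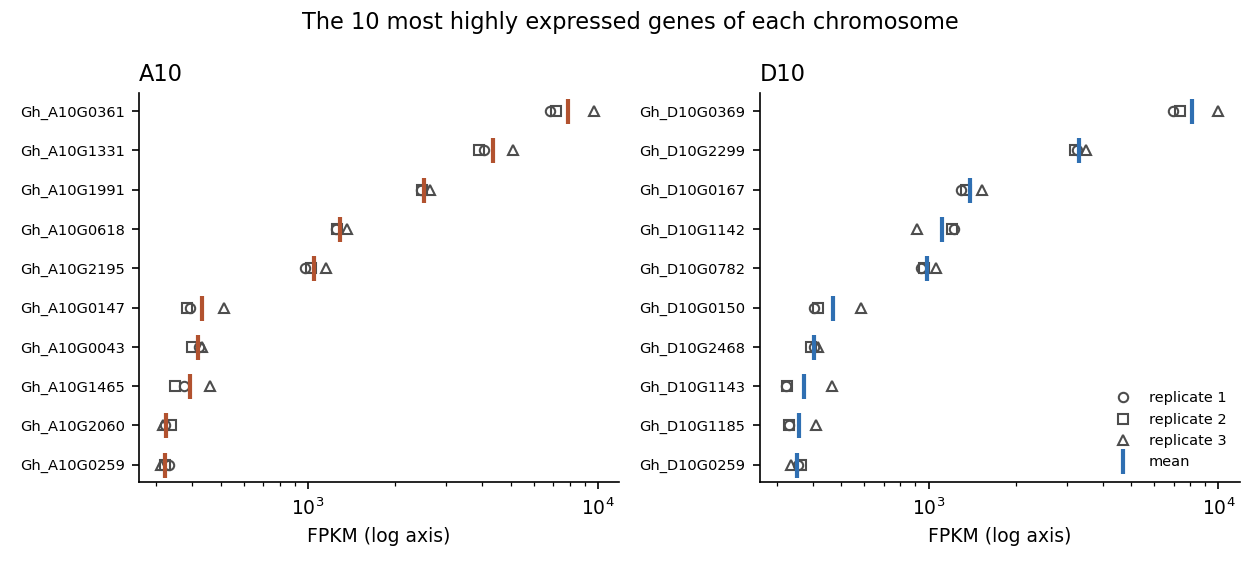
FPKM (log axis) of the 10 most highly expressed genes of A10 (left) and D10 (right), with symbols for the 3 libraries and a bar for their mean. The leading genes, at mean FPKM 7899.7 and 8097, are highest in replicate 3, and the values drop to between 321.5 and 352 by the tenth gene.

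Levels were steady between libraries for most well expressed genes. For genes whose mean FPKM reached 10, the median ratio of the highest to the lowest library was 1.19 on A10 and 1.20 on D10, and it reached 2 in 5 of 513 genes of A10 and 4 of 516 of D10. Replicate 3 was the highest library for 234 of these A10 genes and 239 of the D10 genes. The largest ratio on A10 was that of Gh_A10G0613, with FPKM of 15.3, 30.3 and 6.65 in replicates 1, 2 and 3. On D10 it was that of Gh_D10G0787, with 20.5, 39.6 and 7.67. Both genes were highest in replicate 2 and lowest in replicate 3, and so were Gh_A10G0408 (13.4, 18.9 and 6.91) and Gh_D10G0655 (55.9, 80.6 and 29.1). With 3 libraries of the same condition, no test of these differences was made.

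Transcription factors on chromosome 10 were examined through the study's list of factors with a bias towards a subgenome, 9 A-biased on A10 and 15 D-biased on D10. The study chose them on these libraries as the higher homeolog of an expressed pair, so that all being expressed follows from the choice and is not independent evidence. All 24 had FPKM of 1 or more in every library. Mean FPKM ranged from 2.18 to 162 on A10, with a median of 17.9, and from 1.26 to 27.7 on D10, with a median of 7.06. For all expressed genes the median was 6.62 on each copy.

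The 3 highest factors on A10 belonged to the ERF branch of the AP2/ERF family, plant regulators known for responses to ethylene and stress. Gh_A10G0471 had FPKM of 170.2, 166 and 151 in replicates 1, 2 and 3, Gh_A10G0255 had 117, 101 and 135, and Gh_A10G1483 had 97.2, 88.9 and 117. All 3 stood above every listed factor of D10 in every library. The lowest was Gh_A10G1496 of the MYB family, a large group that regulates metabolism and cell fate, with 1.93, 2.56 and 2.04. Between them lay a GATA, a B3, an SRS, a Dof and a MADS-MIKC factor.

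On D10 the highest factor was again an ERF, Gh_D10G2123, with FPKM of 27.5, 28.5 and 27.2. It lay in the window with the smallest expressed share of D10 over the mean FPKM, Gh_D10G2101 to Gh_D10G2200. Gh_D10G0896 of the TUB family, the Tubby-like proteins, followed with 19.7, 20.5 and 18.8. Gh_D10G1862, a bZIP factor that the study names Rf2b after a rice transcriptional activator, had 13.7, 19.3 and 11.7, the third highest on D10 and among the more variable ones, with a ratio of 1.65 between libraries. The lowest was Gh_D10G0772 of the NAC family, whose members are known from senescence and cell wall formation, with 1.46, 1.17 and 1.15.

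The study also lists which histone marks lie on these factors. The ChIP-seq data were not analysed here, and only the leaf FPKM of the listed factors was grouped by them. On A10, the 3 factors listed with H3K27me3, alone or together with H3K4me3, were the 3 lowest of 9, with mean FPKM from 2.18 to 3.63. The 6 listed with H3K4me3 alone ranged from 5.45 to 162. They were a Dof, a MADS-MIKC and the MYB factor on one side and the ERF, GATA, B3 and SRS factors on the other. On D10, the only factor listed with H3K27me3, Gh_D10G0452 of the LBD family, had 2.78, the second lowest of 15, the 12 with H3K4me3 alone ranged from 1.26 to 27.7, and the 2 with no listed mark had 3.98 and 5.26. These are descriptions of small groups, without a test.

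The study's blue module, a group of genes co-expressed across tissues and tied to leaf, includes 21 genes of A10 and 14 of D10. All 35 had FPKM of 1 or more in every library. Median FPKM was 15.3 on A10, with 14 of 21 genes at 10 or more, and 31.5 on D10, with 13 of 14 at 10 or more. Of all expressed genes, 513 of 1413 reached that level on A10 and 516 of 1474 on D10. The module was built from biased genes, and the study picked it for its association with leaf. A high level in leaf is therefore partly a consequence of that choice. The highest members were Gh_D10G1124 with FPKM of 262, 272 and 297, Gh_D10G1578 with 93.4, 104 and 129, Gh_A10G0255 and Gh_A10G2324. The last had 93.8, 96.0 and 125, and Gh_A10G0255 is the ERF factor described above. Gh_D10G1578 directly followed a silent run of 10 genes, and Gh_A10G2324 lay near the end of A10.

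A comparison within pairs was possible only for D10 genes whose listed homeolog lies on another chromosome number. Of 2580 listed pairs that were used, all with an A homeolog on A01 or A02, 4 had their D homeolog on D10 and none had a member on A10. These contrasts set D10 against A01 or A02 and not against A10. The study paired genes by reciprocal BLAST sequence matches, and whether these 4 pairs are homeologs by position was not tested here. limma was run on log2(FPKM + 1) for the 1999 pairs in which at least 1 homeolog had a mean FPKM of 1 or more, and p-values were adjusted over all of them by the Benjamini-Hochberg method. Biased pairs were those with an adjusted p under 0.05 whose homeologs differed by 1 or more on the log2 scale. Of the 4 pairs, 2 passed the filter and 1 of them was called biased, towards the A homeolog, beside 19.2% of all 1999 pairs, 8.65% towards A and 10.6% towards D. A count over 2 pairs cannot be read against these shares.

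Gh_D10G0983 was nearly silent, with FPKM of 0, 0.0834 and 0.0356 in replicates 1, 2 and 3, while its homeolog Gh_A02G1242 had 16.0, 18.8 and 12.2. The values did not overlap, and on the log2(FPKM + 1) scale, which understates changes of weakly expressed genes, the D10 gene minus its homeolog was -3.99 (SE 0.15, limma adjusted p = 5.04e-07, lower in 3 of 3 libraries). Gh_D10G1507 had 82.7, 72.6 and 102, and its homeolog Gh_A02G0344 had 92.0, 84.2 and 104. These ranges overlapped, and the difference on the same scale was -0.13 (SE 0.15, limma adjusted p = 0.473, lower in 3 of 3 libraries). That fit did not pair the values by library. With the library as a block, the SE was 0.071 and the limma adjusted p was 0.150. Gh_D10G2392 and its homeolog Gh_A01G1364 were listed at 0 in every library. Gh_D10G1173 and its homeolog Gh_A01G1835 stayed below FPKM 0.4 in every library and were not tested.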

How the data were processed

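Leaf RNA was sequenced in 3 libraries. Trimming by the authors used fastp with a minimum quality of 25 and a minimum length of 20 bp. Reads were aligned to the G. hirsutum reference by Hisat2, and StringTie gave FPKM for the gene models of CottonGen. Tool versions are not given in the sources used here. The deposited FPKM were used as they are, without further normalization, and no count test was run. The FPKM files do not hold depth. The study gives read totals of the leaf libraries in its supplement, which were not used here. The header line at the end of each file was dropped. Windows held 100 genes in identifier order. Silent means a mean FPKM below 1. The members, gene lists and tests were chosen with earlier results of these data known. Named genes were the 5 highest on each copy, the ends of silent runs and of extreme windows, the highest and lowest listed transcription factors with Rf2b, the highest blue module genes, the most variable genes and every listed pair member. The breaks at gene 1300 and into 3 segments, and the remaining silent runs and windows named, were chosen after their values were seen. Pairs were fitted with limma 3.58.1 in R 4.3.3, tested first on simulated data. A and D values of a pair come from the same library, and their deviations from the means correlated across pairs (r of 0.22, 0.57 and 0.64 for replicates 1, 2 and 3). The library as a block was an alternative. Other values were computed in Python 3.11.15 with numpy 2.4.6 and pandas 2.3.3, and figures with matplotlib 3.10.9. The study's tables gave pair, family, mark and module membership only. Alternatives covered the threshold, pseudocount, window size and matching, and each library left out.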

Additional observations from a re-analysis of the deposited data

How the results depend on the processing

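Under the alternatives tried, direction changed for the gap of the opening segment and for the order of the copies in longest silent run. The expressed share gap of A10 over D10 was 3.88 percentage points at a threshold of FPKM 2, 3.64 at 0.1, 4.53 with FPKM of 1 or more in every library and 3.93 with at least 1 library. Without each library in turn it ranged from 4.10 to 4.36. The mean log2 gap was 0.26 with a pseudocount of 0.1, 0.19 with 0.42, 0.027 over expressed genes alone, 0.23 as a difference of medians and 0.142 without the 10 highest genes of each copy. D10 lay below A10 in 26 of 48 windows of 50 genes and in 7 of 12 windows of 200 genes. The top 5 genes held 42.4% of FPKM on A10 and 38.2% on D10, and the top 20 held 52.4% and 49.0%. The gap of the opening segment turned to 0.06 without replicate 1 and was -1.31 without replicate 2, and that of the middle segment was 5.42 without replicate 1. The longest silent run was 15 genes on A10 and 14 on D10 both at a threshold of FPKM 0.1 and for genes listed at 0, against 17 and 21 at FPKM 1. The pair calls were the same in the 9 alternatives, the replicate block included, under which 1 of 2 pairs was biased and the adjusted p from limma for Gh_D10G0983 was 1.22e-05. FPKM without read counts leaves the precision of genes near the threshold unknown.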

Other observations

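The study's Cluster 1, genes with broad H3K4me3 over the promoter, was used on A10 only as far as its list was used here, which covers 71 genes up to Gh_A10G1043. Of these, 54 (76.1%) had a mean FPKM of 1 or more, and 6 were listed at 0 in every library. Median FPKM was 4.52, with quartiles of 1.25 and 9.50. The other 972 A10 genes up to the last listed one had 577 expressed genes (59.4%) and a median FPKM of 2.05. The study formed its clusters among genes associated with H3K4me3, whereas these 972 were not selected for the mark. Broad H3K4me3 and carrying the mark at all can therefore not be told apart here. Gh_A10G0767, the highest listed gene, had a mean FPKM of 130.4 and was picked for its level.

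Neighbouring genes resembled each other only weakly in level. The correlation of log2(FPKM + 1) between each gene and the next was 0.09 on A10 (2356 neighbours) and 0.10 on D10 (2645 neighbours), within the range of 0.05 to 0.15 over the 26 chromosomes, as a description of genes that share libraries. Unbroken runs of expressed genes were as long on both copies, 17 genes at most, in Gh_A10G1752 to Gh_A10G1768 and in Gh_D10G0452 to Gh_D10G0468. Their median FPKM was 7.30 and 3.82.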
